A study of Mus musculus with 9 samples.

Results

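Platelet-derived growth factors act through a small set of receptors and ligands, and all 7 genes of this set were measured in muscle stem cells of Bmi1-deficient mice (KO) and of wild type mice (WT). The genes were those named Pdgfra, Pdgfrb, Pdgfrl, Pdgfa, Pdgfb, Pdgfc and Pdgfd in the scanner files. They make up 7 of 36373 genes and unnamed features on the array and were covered by 9 of 55681 non-control probes, 1 for each gene and 2 for Pdgfa and Pdgfb, and 7 of 7 passed the filter on dim probes, which asked for a signal well above background on 3 or more of the 9 arrays. Satellite cells were isolated from skeletal muscle with a cell sorter, which kept cells that carry CD34 and integrin alpha-7 and discarded those with Sca1, CD11b, CD31 or CD45, and their RNA was amplified before labelling. Both groups came from FVB mice, labelled male and 2 months old. The labels call the KO group Bmi1-deficient, and the sources used here do not name the allele. There were 6 KO arrays and 3 WT arrays. The labels name the KO arrays biological replicates 1 to 6. Those whose descriptions share a sample number were nonetheless averaged in pairs, because their scatter was close to that of repeat spots on an array, which left 3 KO samples (replicates 1 and 4, 2 and 5, 3 and 6) and 3 WT samples.

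Pdgf ligands are secreted dimers of the A, B, C and D chains. The A and B chains are cut to their active form inside the cell, while the C and D chains leave the cell with an extra domain that is removed outside it. The alpha receptor binds the A, B and C chains and the beta receptor mainly B and D, and both are receptor tyrosine kinases that dimerise on binding. Pdgfrl encodes a receptor-like protein without a kinase domain. In adult muscle, Pdgfra is the usual marker of fibro-adipogenic progenitors, the fibroblast-like cells between the fibres, and Pdgfrb is used as a marker of pericytes and other mural cells.

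The windows of 300 bases around the annotated starts of Pdgfra and Pdgfd, from 250 bases before to 50 after, are shown because these genes had the largest differences among the 4 members with an entry in the promoter table of RefSeq (GRCm38.p6, Pdgfa, Pdgfc, Pdgfd and Pdgfra). Both are read on the plus strand, 5′ to 3′. Capitals mark CG, the dinucleotide that is dense in CpG islands.
Pdgfra, chr5:75152001-75152300: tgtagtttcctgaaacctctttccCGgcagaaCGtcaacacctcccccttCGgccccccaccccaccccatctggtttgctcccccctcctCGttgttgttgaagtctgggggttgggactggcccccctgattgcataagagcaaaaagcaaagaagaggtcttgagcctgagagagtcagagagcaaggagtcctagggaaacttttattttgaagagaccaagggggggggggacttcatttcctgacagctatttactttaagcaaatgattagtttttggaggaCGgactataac
Pdgfd, chr9:6168236-6168535: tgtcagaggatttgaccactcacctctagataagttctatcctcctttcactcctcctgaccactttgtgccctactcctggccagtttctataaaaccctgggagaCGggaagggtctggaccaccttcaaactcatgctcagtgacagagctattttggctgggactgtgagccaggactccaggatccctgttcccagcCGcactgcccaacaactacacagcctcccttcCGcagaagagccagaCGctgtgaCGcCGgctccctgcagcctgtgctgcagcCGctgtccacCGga

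The Pdgfra window held 5 CG and the Pdgfd window 8, as compared to a median of 7.0 over 32851 windows of this length (lower quartile 3.0, upper quartile 20). The Pdgfc window (chr3:81036166-81036465) also held 8. The 2 windows of Pdgfa, read on the minus strand (chr5:138994232-138994531 and chr5:138994895-138995194), held 24 and 37, more than 80.0% and 94.4% of all windows. The motif GGGCGG, searched on both strands, which overlaps CG in its own letters, was found in both Pdgfa windows and in none of the other 3, and it was present in 35.7% of all windows. TATAAA, searched on both strands, was found in the Pdgfd window alone among these 5 windows and in 13.6% of all windows. These matches describe the letters of the windows, and no binding or methylation was measured.

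All values below are log2 of the processed signal minus the 75th percentile of the array's log2 signals. A level of one probe is not comparable with that of another, so the 7 genes were not ranked by level. The share of spots well above background was 71.9% to 75.8% over the 9 arrays and no spot was saturated (0 on each array). The 2 arrays of a KO sample correlated at 0.9944 to 0.9956 over probes, and all other pairs of arrays at 0.9622 to 0.9786. The number of samples limits the precision, and the labels do not say whether each came from its own animal. A p-value here therefore measures the spread between samples that may differ for technical reasons alone. The genotype field of KO replicate 1 says wild type, against its title, source and description. It was kept in the KO group, and leaving it out changed no direction and no call among the 7 genes. The targeted gene was not lower in KO: its 2 probes were well above background on all 9 arrays and differed by 0.10 (exact two-sided permutation p = 0.4) and 0.21 (exact p = 0.2), so the Bmi1 transcript gives no check of the labels. Itga7 and Cd34, which the sort selected for, and Pax7, the transcription factor that marks satellite cells, were well above background on all 9 arrays, with differences of -0.014, 0.26 and 0.022. Of the genes that the sort selected against, Ptprc (CD45) and Itgam (CD11b) were well above background on 9 arrays, and Pecam1 (CD31) and Ly6a (Sca1) on 6 of 6 KO arrays and 2 of 3 WT arrays each.

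Both signalling receptors had a higher signal in every KO sample than in every WT sample, and Pdgfrb alone of the 7 genes passed the test over all genes. Pdgfrb rose 2.54-fold in KO samples. Pdgfra was detected on all 6 KO arrays and was not well above background on any of the 3 WT arrays. Among the ligands, Pdgfd was higher in every KO sample than in every WT sample without passing the test, Pdgfb differed by 1.09 with overlapping samples, and Pdgfa, Pdgfc and the receptor-like Pdgfrl differed by 0.10, 0.15 and 0.20. The 1 member called, Pdgfrb, stands against 40 of 28363 genes called (0.141%), 37 of them higher (0.13%) and 3 lower (0.0106%). The samples of the groups did not overlap for 3 of the 7 members, all higher in KO, as compared to 8.62% of all genes with every KO sample above every WT sample, 8.09% with every KO sample below and 16.7% in either direction. The difference was positive for 7 of 7 members and for 47.2% of all genes. Pdgfra passed the filter through its KO arrays alone and so had to differ. Of the other 6 members, 2 did not overlap and 6 had a positive difference. Over all genes tested, the median difference was -0.017.

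**Figure D1:**
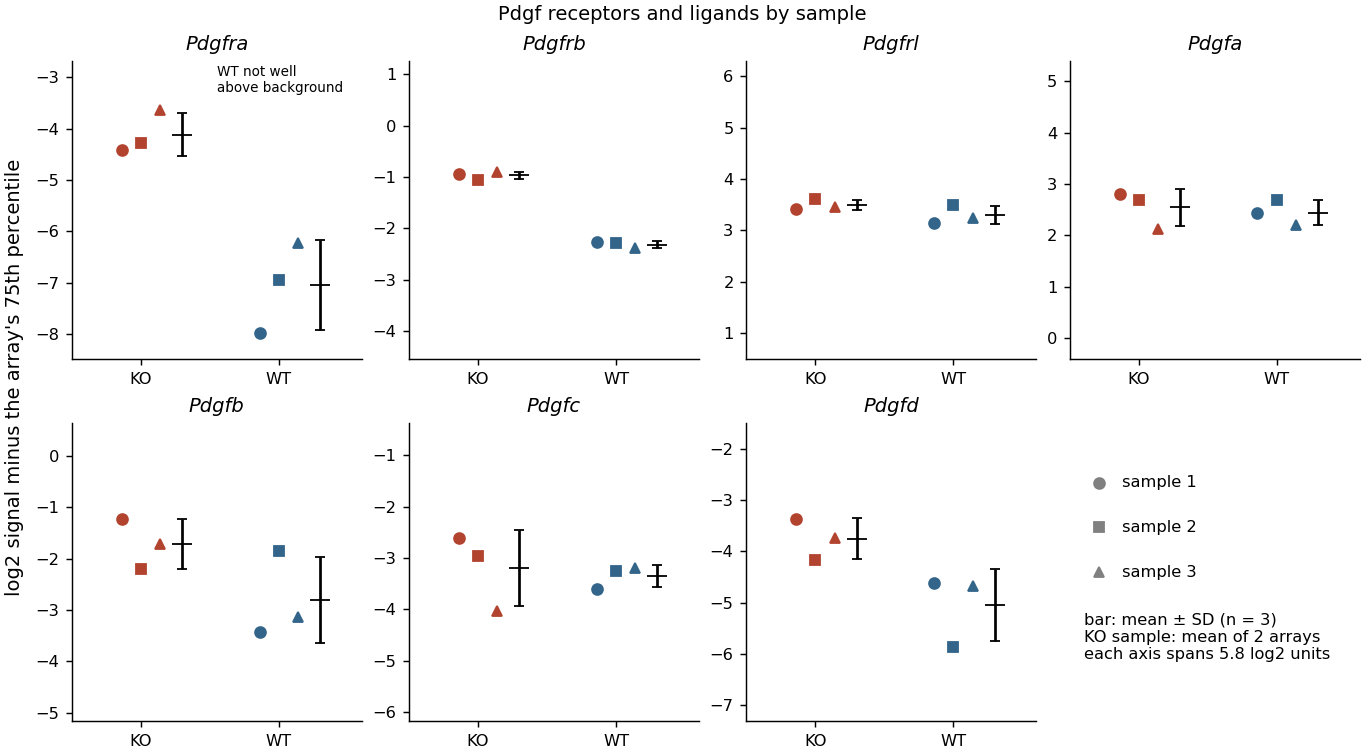
The log2 signal minus the array's 75th percentile is plotted for each of the 7 Pdgf genes, with the 3 KO samples on the left and the 3 WT samples on the right of each panel and the mean ± SD (n = 3) as a bar. Each axis spans the same number of log2 units, and the KO points lie clear of the WT points for Pdgfra, Pdgfrb and Pdgfd.

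Pdgfrb, the beta receptor, had log2 signals of -0.94, -1.05 and -0.91 in KO samples, against -2.27, -2.29 and -2.39 in WT samples. The KO samples lay within 0.14 of each other and the WT samples within 0.12, and the groups were 1.22 apart at their nearest samples. The means were -0.97 ± 0.07 in KO and -2.31 ± 0.06 in WT (SD, n = 3 each), a difference of 1.35 ± 0.11 (SE; 95% interval 1.07 to 1.62; limma adjusted p = 0.0377). An exact permutation test gave p = 0.1, which 3 samples against 3 cannot go below. The processed signal ran from 590 to 672 on the 6 KO arrays, as compared to 201 to 280 on the 3 WT arrays, and the probe (chromosome 18, 61244606 to 61244665 on the plus strand of mm9) was well above background on all 9. Slide 1 alone gave 1.38 ± 0.14 (SE; limma adjusted p = 0.126) and slide 2 gave 1.30, where a single WT array allowed no test. With slide as a block it was 1.34 (limma adjusted p = 0.102), and with no filter on dim probes the adjusted p was 0.057. Leaving out any 1 of the 6 samples kept the difference between 1.31 and 1.39 while the adjusted p moved to between 0.0905 and 0.145, so the call needs all 6 samples and the size does not.

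Pdgfra, the alpha receptor, was read from a single probe (chromosome 5, 75593888 to 75593947 on the plus strand of mm9) that was spotted 10 times on each array. On the KO arrays the mean processed signal of these spots was 56.4, 67.5, 87.7, 54.9, 68.8 and 104 for replicates 1 to 6, against 4.71, 11.7 and 14.4 on WT arrays 1 to 3. The lowest KO array was thus well over the highest WT array. Of the unmarked spots, 60 of 60 were well above background on the KO arrays, as compared to 1 of 26 on the WT arrays, where 8 of the 26 were surrogates, small positive values that stand in for spots at background. This pattern, well above background on all 6 KO arrays and on none of the 3 WT arrays, was shared by 89 of the 55681 probes (0.16%).

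**Figure D2:**
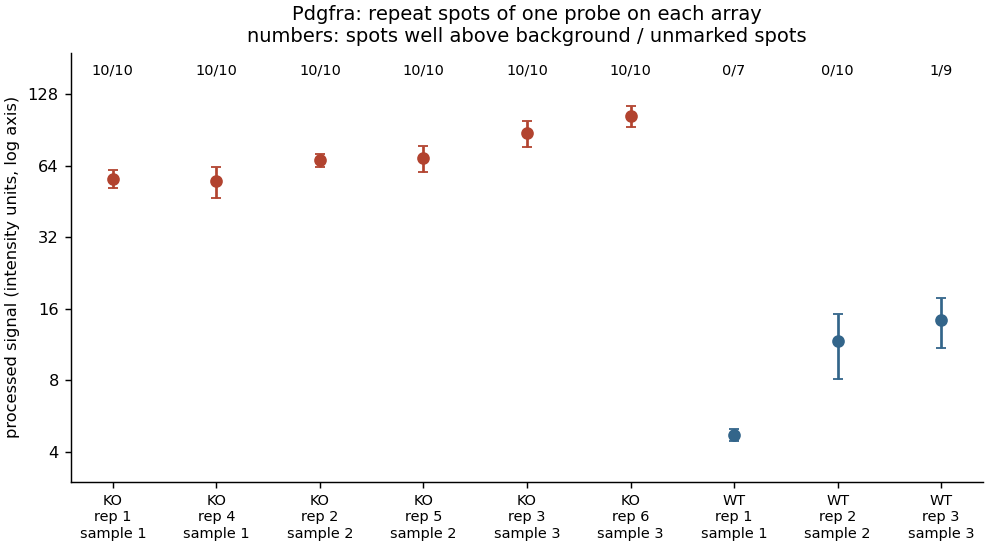
The mean processed signal of the repeat spots of the Pdgfra probe (log axis, SD of the spots as bars) is shown for each of the 6 KO arrays on the left, paired by sample, and the 3 WT arrays on the right, with the number of spots well above background over the unmarked spots above each. The KO arrays run from 54.9 to 104 and the WT arrays from 4.71 to 14.4.

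The log2 signal of Pdgfra was -4.42, -4.28 and -3.64 in KO samples, against -7.97, -6.94 and -6.23 in WT samples. KO sample 3 was the highest and the groups did not overlap. Since WT was not well above background, its level is only a bound. With the scanner's own background subtraction, the KO mean was at least 3.49-fold higher by this bound (KO mean -4.12, against a WT bound of -5.92). The bound takes, on each WT array, the higher of the probe and the lowest signal among probes well above background. It is not a limit measured for this probe, and the fold does not carry over to another background correction. The measured difference of 2.93 ± 0.47 (SE) did not pass the test over all genes (limma adjusted p = 0.0989, rank 212 of 28363 by p; exact permutation p = 0.1). The slides gave 2.97 (slide 1) and 2.84 (slide 2), and slide as a block gave 2.91. It fell to 0.75 (limma adjusted p = 0.0834) when normexp, a model-based background correction, with an offset of 50 replaced the scanner's own subtraction. The effect of the offset was not separated from that of the background model.

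Pdgfrl, the receptor-like gene, was bright on every array, with processed signals of 12151 to 16779 on KO arrays and 9973 to 15376 on WT arrays. Its log2 signal was 3.41, 3.61 and 3.46 in KO samples, against 3.15, 3.49 and 3.25 in WT samples. WT sample 2 lay inside the KO range, and the difference of 0.20 ± 0.14 (SE; 95% interval -0.15 to 0.54; limma adjusted p = 0.698) did not pass. It was 0.34 within slide 1 and -0.04 within slide 2. The probe lies on chromosome 8, 42075859 to 42075918, plus strand, mm9.

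Among the ligands, Pdgfd encodes a chain that acts mainly through the beta receptor. Its log2 signal was -3.36, -4.16 and -3.74 in KO samples, against -4.61, -5.86 and -4.68 in WT samples. The groups did not overlap, and WT sample 2 was the lowest of the 6. The difference of 1.30 ± 0.39 (SE; 95% interval 0.33 to 2.26) had an unadjusted p of 0.0164 and a limma adjusted p of 0.306, in a fit where 11% of all genes had an unadjusted p under 0.05. The exact permutation p was 0.1. The slides gave 0.97 (slide 1) and 2.03 (slide 2), and normexp gave 0.57, so the direction held and the size varied. Slide 2 holds a single WT array, WT sample 2. Its -5.86 lay near -6.08, the lowest signal among probes well above background on that array. Without WT sample 2 the difference was 0.89 (limma adjusted p = 0.344). The signals were dim, 70.5 to 117 on KO arrays and 23.5 to 48.3 on WT arrays, though the probe (chromosome 9, 6376926 to 6376985, plus strand, mm9) was well above background on all 9.

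Pdgfb, the B chain, which binds both receptors, was read by 2 probes whose starts lie 1062 bases apart on the minus strand of chromosome 15 (79827438 to 79827497 and 79826376 to 79826435, mm9). The brighter probe gave log2 signals of -1.23, -2.21 and -1.72 in KO samples, against -3.43, -1.85 and -3.14 in WT samples. WT sample 2 was above KO sample 2, so the groups overlapped, while the other WT samples were below all KO samples. The other probe repeated this order of WT samples, with -1.33, -2.35 and -1.93 in KO samples, against -3.28, -1.87 and -3.11 in WT samples. The differences were 1.09 ± 0.47 (SE; 95% interval -0.06 to 2.23; limma adjusted p = 0.477) and 0.88 (exact permutation p = 0.3). WT sample 2 is the only WT array on slide 2, and the slides gave differences of 1.55 (slide 1) and 0.15 (slide 2). Slide as a block gave 0.85. Without WT sample 2 it was 1.56 (limma adjusted p = 0.229).

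Pdgfa, the A chain, which binds the alpha receptor, was bright, with processed signals of 4956 to 8890 on KO arrays and 4853 to 8846 on WT arrays at its brighter probe. Its 2 probes share 51 of 60 bases (chromosome 5, 139452934 to 139452993 and 139452925 to 139452984, minus strand, mm9) and are close to 1 measurement. The log2 signal was 2.80, 2.70 and 2.13 in KO samples, against 2.43, 2.69 and 2.21 in WT samples. The KO samples spanned the whole WT range, and the difference of 0.10 ± 0.23 (SE; 95% interval -0.46 to 0.66; limma adjusted p = 0.926) was within the spread of either group. The overlapping probe differed by 0.17. Within slide 1 the difference was 0.22 and within slide 2 -0.15.

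Pdgfc, the C chain, a ligand of the alpha receptor that is activated outside the cell, had log2 signals of -2.62, -2.95 and -4.03 in KO samples, against -3.60, -3.25 and -3.19 in WT samples. KO samples 1 and 2 lay above all WT samples and KO sample 3 below them, on both of its arrays (-3.95 and -4.11). The difference was 0.15 ± 0.38 (SE; 95% interval -0.77 to 1.07; limma adjusted p = 0.938), 0.22 within slide 1 and 0.03 within slide 2. Pdgfc thus had the widest KO spread of the 7 genes, an SD of 0.74 as compared to 0.22 in WT. Its probe lies on chromosome 3, 81017572 to 81017631, plus strand, mm9.

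**Figure D3:**
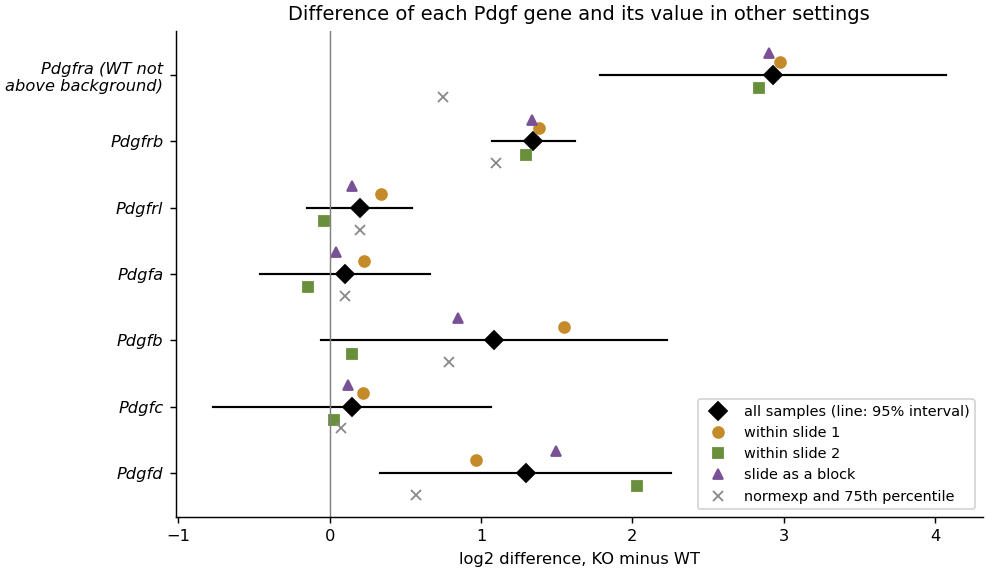
The log2 difference, KO minus WT, of each Pdgf gene is shown with its 95% interval from limma (black) beside the values of each slide, of a fit with a slide block and of normexp. The Pdgfrb values stay between 1.10 and 1.38 in these settings, Pdgfra drops to 0.75 with normexp, and the values of the slides are farthest apart for Pdgfb and Pdgfd.

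The genes whose pattern over the 6 samples came closest to each member were taken by the root mean square (RMS) distance of the log2 values, each gene centred on its own mean, among 24943 genes well above background on all 9 arrays. Of the 4 nearest to Pdgfrb, 1 has a symbol, Igf2, an imprinted growth factor, at an RMS distance of 0.0995 (member SD over the samples 0.74), and it differed by 1.30 (limma adjusted p = 0.0442). Among the nearest to Pdgfb were Vit, Ebf2 and Lepr, at 0.195 to 0.253, and nearest to Pdgfd, besides 1 probe without a symbol, were Prima1, Fxyd3 and Ang, at 0.204 to 0.263. Pdgfa had Golt1b and Aldh9a1 at 0.0329 and 0.0387, Pdgfc had Tlcd2 and Mblac2 at 0.0646 and 0.0890, each beside 2 features without a symbol. Pdgfrl had Ppp1r9b, 4932438A13Rik and Loxhd1 at 0.0335 to 0.0446. Distances describe these 6 samples only, and a member with little spread can have near neighbours whatever its pattern. The neighbours were picked by these same values. A difference close to the member's own, and its p, such as those of Igf2, follow from that choice and are no support.

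The other genes of the pathway were taken from 4 lists, and none of their members (0 of 79 tested) passed the limma test over all genes. At an unadjusted p under 0.05, 17 were higher and 3 lower in KO, against 6.78% and 4.21% of all genes. The higher ones include Grb14, which passed the filter through its KO arrays alone and so had to differ.

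Of 16 tested genes that process or bind the ligands, 10 had a positive difference, with a median of 0.05 as compared to -0.017 over all genes, and 4 had an unadjusted p under 0.05, all higher. The lowest p belonged to Nrp1, a co-receptor that binds Pdgf and Vegf ligands, at -0.54 ± 0.13 in KO and -1.60 ± 0.19 in WT (SD, n = 3 each), a difference of 1.06 (limma adjusted p = 0.0792). Dcn, the matrix proteoglycan decorin, differed by 0.92 (limma adjusted p = 0.127). On the other side were Pdap1, named for its association with the A chain, at -0.15 and the proprotein convertase Pcsk6 at -0.17 (limma adjusted p = 0.756 and 0.91).

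The 36 genes of proximal receptor signalling, the adaptors, kinases and transcription factors that act on the activated receptors, had a median difference of -0.04, with 15 positive and 21 negative. At an unadjusted p under 0.05, 3 were higher and 0 lower. The lowest p values were those of the scaffold Slc9a3r2 (0.58, limma adjusted p = 0.258) and the Src family kinase Fyn (0.55, limma adjusted p = 0.371). Stat5a and Stat5b, transcription factors, had the lowest p of the negative side (-0.41 and -0.27, limma adjusted p = 0.481 and 0.487).

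Of 15 genes that restrain the receptors, among them phosphatases and ubiquitin ligases, 12 had a positive difference, with a median of 0.14, and at an unadjusted p under 0.05, 5 were higher and 1 lower. Grb14, an adaptor that inhibits receptor tyrosine kinases, was well above background on 3 of 6 KO arrays and 0 of 3 WT arrays. Its log2 signal was -5.50, -6.52 and -5.45 in KO samples, against -7.94, -8.08 and -8.07 in WT samples (limma adjusted p = 0.0776). No fold is given, since part of the KO arrays were not well above background. Grb14 passed the filter through its KO arrays alone and so had to differ. Its p and its place in these counts are therefore no support. Sh3kbp1, an adaptor of receptor endocytosis, differed by 0.72 (limma adjusted p = 0.248). Negative were the phosphatase Ptpn1 (-0.42) and the adaptor Sh2b3 (-0.18), with limma adjusted p of 0.434 and 0.75.

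Of 12 tested genes among the related receptor kinases and the wider Pdgf and Vegf ligand family, 9 had a positive difference and the median was 0.27, with 5 higher and 2 lower at an unadjusted p under 0.05. The Vegf receptor Flt1, well above background on 6 of 6 KO arrays and 2 of 3 WT arrays, differed by 1.27, with -4.46 ± 0.03 in KO and -5.73 ± 0.51 in WT (limma adjusted p = 0.154). Kitl, the ligand of Kit, differed by 0.73, with -0.52 ± 0.17 in KO and -1.25 ± 0.17 in WT (limma adjusted p = 0.16). The ligands Vegfb and Vegfc were on the negative side, at -0.59 and -0.47 (limma adjusted p = 0.187 and 0.436).

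**Figure D4:**
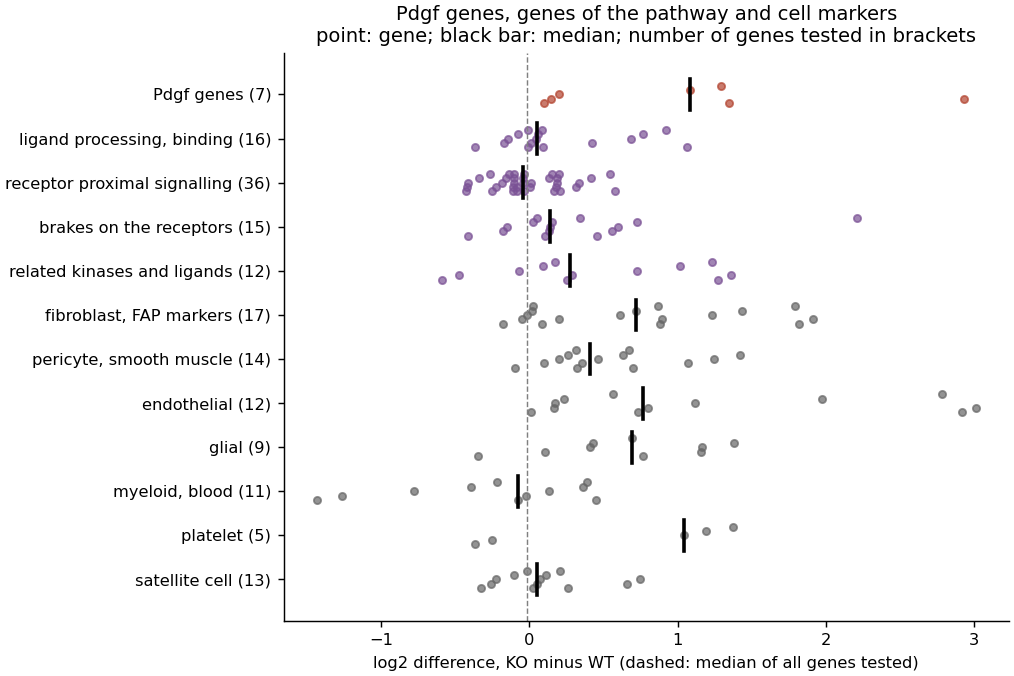
The log2 difference, KO minus WT, of each tested gene is shown as a point for the 7 Pdgf genes, the 4 pathway lists and the 7 marker lists, with the median of a list as a black bar and the median over all genes as a dashed line. The proximal signalling genes centre near 0 (median -0.04), and the fibroblast, endothelial, glial and platelet lists have medians of 0.72, 0.77, 0.69 and 1.04.

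Since Pdgfra and Pdgfrb are also markers of other cells of muscle, lists of markers of the cells that a sort could hold were read beside them (no Pdgf gene is on a list). In bulk samples, a different number of cells of a type and a different amount of RNA per cell cannot be told apart. The 17 fibroblast and fibro-adipogenic progenitor markers had a positive difference in 14, with a median of 0.72. Every KO sample was above every WT sample in 9 and below in 0, against 8.62% and 8.09% of all genes. Counts above and below were 5 and 0 of 9 glial, 5 and 0 of 14 pericyte, and 1 and 0 of 12 endothelial markers. They were 1 and 2 of 11 myeloid, 0 and 1 of 5 platelet, and 2 and 3 of 13 satellite cell markers. In the pathway lists they were 4 and 0 of 16 for ligand processing and 4 and 4 of 36 for proximal signalling. The genes that restrain the receptors had 5 and 1 of 15, Grb14 among them, and related kinases and ligands 7 and 2 of 12. The summed signal of the fibroblast markers, in multiples of the array's 75th percentile, was 183 to 201 in KO samples and 143 to 151 in WT samples. Of these 17, 14 were well above background on all 9 arrays. Smoc2 differed by 0.88 and Col1a1, a chain of type I collagen, by 1.91 (limma adjusted p = 0.0666 and 0.0778), while Thy1 was at -0.18. The list also holds Tcf4, at -0.05, which is a different gene from Tcf7l2, the gene of the fibroblast marker called TCF4. Ly6a, the gene of the Sca1 antigen that marks these progenitors, had log2 signals of -1.61, -5.74 and -3.32 in KO samples, against -5.35, -4.79 and -5.99 in WT samples. KO sample 2, lowest in Ly6a among the KO samples and below 2 of the WT samples, had a Pdgfra signal between those of the other KO samples and a Pdgfrb signal 0.11 below the nearer of them.

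Of the 14 pericyte and smooth muscle markers, 13 had a positive difference, with a median of 0.41 and a summed signal of 162 to 175 in KO samples and 165 to 168 in WT samples (65.8 to 71.2 and 55.1 to 61.8 without Mcam, the brightest), and all 14 were well above background on all 9 arrays. Cspg4, the NG2 proteoglycan of pericytes, differed by 0.67 and the channel subunit Abcc9 by 1.07 (limma adjusted p = 0.136 and 0.253), and Mcam by -0.10. Of the 12 endothelial markers, 12 had a positive difference, with a median of 0.77, and 8 were well above background on all 9 arrays. Among these 12, 1 passed the filter through its KO arrays alone and so had to differ. The sum of the endothelial markers was 7.96, 5.09 and 5.07 in KO samples 1 to 3, against 4.77, 4.75 and 3.67 in WT samples, with KO sample 1 the highest. Tek made up 49.9% to 77.7% of these sums. Esam and Vwf differed by 1.12 and 0.73 (limma adjusted p = 0.4 and 0.36). Pdgfb, a ligand that endothelial cells are known to make, was also highest in KO sample 1. The median shift of the endothelial list from the WT mean was 1.73, 0.07 and 0.56 in KO samples 1 to 3, against -0.12, 0.38 and -0.18 in WT samples 1 to 3. By this shift WT sample 2 was the highest WT sample, as for Pdgfb, while by the sum it was WT sample 1 (4.77, against 4.75). WT sample 2 is also the only WT array on slide 2. A link between Pdgfb and the endothelial markers was not tested.

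The 9 tested glial markers had 8 positive differences, a median of 0.69 and a summed signal of 70.0 to 73.0 in KO samples and 55.8 to 64.4 in WT samples, with 9 well above background on all 9 arrays. Mbp, which encodes a myelin protein, differed by 1.38 (limma adjusted p = 0.0753), and Ngfr by -0.35. The 11 myeloid and blood markers had a median of -0.08, with sums of 116 to 129 in KO samples and 119 to 139 in WT samples and 7 of 11 well above background on all 9 arrays. Itgam alone made up 99.3% to 99.6% of these sums, and without it they were 0.555 to 0.810 in KO samples and 0.587 to 0.929 in WT samples. Cd68 and Cd14 differed by 0.45 and 0.39, and Tyrobp and Cd74 by -1.26 and -1.43 (limma adjusted p = 0.419, 0.893, 0.572 and 0.6). The 5 platelet markers had a median of 1.04, the highest of the 7 marker lists, with 3 positive and 2 negative differences, and summed to 0.607 to 0.814 in KO samples and 0.593 to 0.757 in WT samples, with 2 well above background on all 9 arrays. Itga2b and Pf4 differed by 1.19 and 1.37, and Treml1 and Gp1ba by -0.37 and -0.25 (limma adjusted p from 0.444 to 0.808). The 13 satellite cell markers had a median of 0.05, with sums of 161 to 162 in KO samples and 161 to 177 in WT samples and all 13 well above background on all 9 arrays. Sdc4 and Cdh15 differed by 0.75 and 0.20, and Chrdl2 and Fgfr4 by -0.33 and -0.26 (limma adjusted p = 0.106, 0.585, 0.455 and 0.526).

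By sample, the median shift of the fibroblast list from the WT mean was 0.77, 0.24 and 0.76 in KO samples 1 to 3, and that of the pericyte list was 0.78, 0.17 and 0.75. KO sample 2 thus had the smallest shift in both lists. The shift of Pdgfrb was close to even across the KO samples, and its own values of -0.94, -1.05 and -0.91 put KO sample 2 only slightly lowest. Pdgfra was lowest in KO sample 1 and highest in KO sample 3, and Pdgfd was lowest in KO sample 2. The part of these markers in the differences of the Pdgf genes was not tested.

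**Figure D5:**
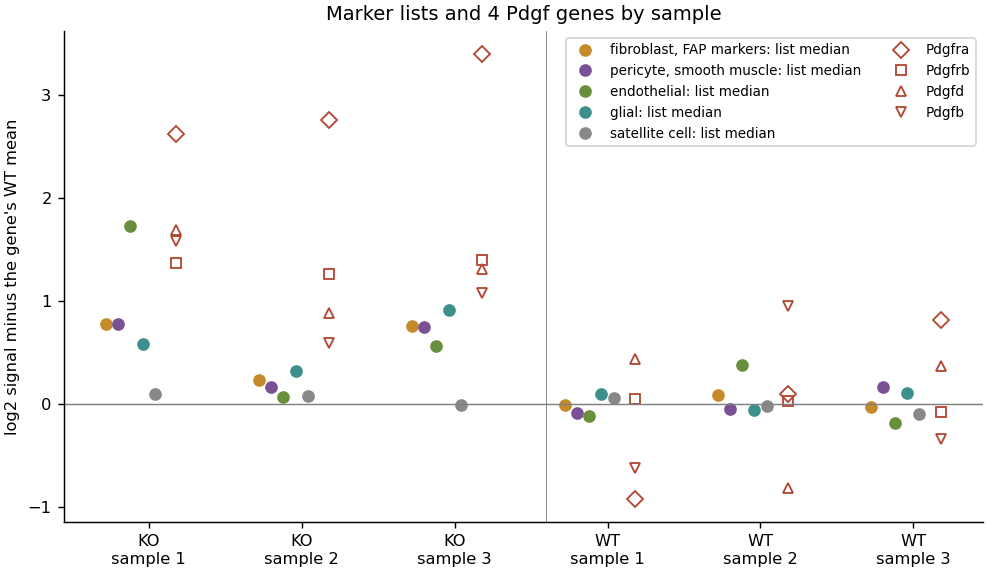
For each KO sample on the left and each WT sample on the right, the filled points give the median over a marker list of the log2 signal minus the gene's WT mean, and the open symbols give the same quantity for Pdgfra, Pdgfrb, Pdgfd and Pdgfb. Of the KO samples, KO sample 2 has the smallest shifts of the fibroblast, pericyte, endothelial and glial lists (0.24 for the fibroblast list), and Pdgfrb is nearly level over the KO samples.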

How the data were processed

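The authors deposited the scanner output of 9 Agilent arrays of 1 colour, as linear spot intensity. Feature Extraction 10.7.3.1, per the file headers, removed background from the processed signal and put a small positive surrogate in place of dim values. Per the labels' protocols, RNA was amplified before labelling with Cy3, which can distort levels. The deposited value table has the range of log2 values and matched normexp with an offset of 50 plus quantile normalization (r at least 0.999975 over probes, largest difference 0.0606). Its method, not given in the sources used here, is known from this match only.

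From the processed signal, log2 was taken and the 75th percentile of non-control spots subtracted for each array. Spots marked as outliers (93 to 148 an array) were left out, repeat spots averaged, and 35 empty values, none in a Pdgf probe (0), filled with the probe's mean. The filter kept 42980 probes that were well above background on 3 or more of the 9 arrays, and with 6 KO arrays, a gene detected only in KO passes it more easily. Each gene was read from its kept probe of highest mean. Arrays of a KO sample, which differed by an SD of 0.135 to 0.157, close to that of repeat spots within an array (0.104 to 0.135), were averaged. KO and WT (3 samples each) were compared by limma 3.58.1 (lmFit, eBayes; R 4.3.3), with p adjusted by Benjamini and Hochberg over 28363 genes at a threshold of 0.05, and single probes with the exact two-sided permutation test over 20 splits, which cannot go below 0.1. The fit was tested on simulated data. Slide 1 held 3 KO and 2 WT arrays and slide 2 held 3 KO and 1 WT array. Each KO sample has an array on each slide, so WT alone sets the slide term of the block. The 22 alternatives are given in the closing section.

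Names were updated through a RefSeq table (GRCm38.p6), by accession for 26300 probes, symbol for 2044 and synonym for 355, with 26982 names kept. Probe coordinates are those of the array design (mm9) and promoter windows those of GRCm38.p6. The 2 builds were not mixed. The Pdgf genes, the lists of 166 genes (160 tested) and the alternatives were chosen with earlier results of these data known. Besides the Pdgf genes, the targeted gene and the genes of the sort gate, the text names, from each list, the 2 genes with the lowest p in each direction, and for each Pdgf gene detected on all arrays the 4 nearest in pattern. A few items that this rule names are not reported here. Files were read and plots drawn in Python 3.11.15 (pandas 2.3.3, matplotlib 3.10.9).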

Additional observations from a re-analysis of the deposited data

How the results depend on the processing

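Of the 22 alternatives, 3 gave counts within 1.5 times of the 40 genes called over all genes tested and kept the 1 Pdgf call, with 31 genes for the processed signal with quantile normalization, 42 for the mean of kept probes and 36 without the array of KO replicate 1. Against these 40 genes and 1 Pdgf gene, limma called 295 and 1 with normexp and the 75th percentile, 249 and 1 with normexp and quantile normalization, 248 and 1 in the authors' deposited value table, 104 and 1 among genes well above background on all 9 arrays, 21 and 0 with every kept probe as its own feature, and 13 and 0 with no filter. It called 4 and 0 with slide as a block, 2 and 0 within slide 1, 1202 and 2 with all 9 arrays as separate samples, 546 and 2 where a random block stood for the sample, and 367 and 2 with slide as a fixed block added. The labels name the KO arrays as 6 biological replicates, which the fit of separate arrays follows. Leaving out 1 sample gave 0 to 9 genes called (2536 to 3235 at an unadjusted p under 0.05) and 0 Pdgf genes. The replicate block, with the sample number as a block, called 0 genes by limma (2952 at an unadjusted p under 0.05) and 0 Pdgf genes. The numbers do not pair the samples by any label, and same-numbered KO and WT samples correlated at -0.043, 0.025 and 0.0076 in their deviations from the group means.

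Pdgfrb kept a positive difference in 22 of 22 alternatives, from 1.07 to 1.39, and passed in 10 of 21 with a test. It did not pass at 1.35 with no filter (limma adjusted p = 0.057), 1.35 with every probe as its own feature (0.0567), 1.34 with slide as a block (0.102), 1.38 within slide 1 (0.126), 1.35 with the replicate block (0.187) and 1.31 to 1.39 without 1 sample (0.0905 to 0.145). In the first pair more features are tested, and fewer arrays or samples enter within slide 1 and without 1 sample. Why the call was lost was not tested in any of these settings. Pdgfra has only a bound in WT and was kept through its KO arrays alone, so its measured difference, 0.75 to 3.34 over 21 alternatives, is no estimate of size and its passes are no support. The adjusted p was under 0.05 in 3 of 20, at 2.93 with all 9 arrays separate (limma adjusted p = 0.00364), 2.93 with the sample as a random block (0.00844) and 2.93 with slide added (0.0234). It was 0.77 with normexp and quantile normalization and 0.81 in the authors' deposited value table. Pdgfb and Pdgfd were positive in 22 of 22 and passed in 0 of 21 (limma adjusted p from 0.158 to 0.744 and from 0.0555 to 0.562). Pdgfb was 0.15 and Pdgfd 2.03 within slide 2. Pdgfa ran from -0.016 (without WT replicate 3) to 0.23 without 1 WT sample and from -0.028 (without KO replicates 1 and 4) to 0.31 without 1 KO sample, and was -0.15 within slide 2. Pdgfc turned to -0.15 without KO replicates 1 and 4, and Pdgfrl to -0.04 within slide 2. The cause was not tested.

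In the pathway lists, 0 genes were called (17 higher and 3 lower at an unadjusted p under 0.05), against 1 with normexp, with either normalization, in the authors' deposited value table, with the stricter filter and without KO replicates 2 and 5, 8 with all 9 arrays separate, and 4 with the random block, with or without slide. Leaving out 1 sample gave 0 to 1. The call without KO replicates 2 and 5, 2 of the 8 and 1 of the 4 lay among the genes that restrain the receptors. That list holds Grb14, which passed the filter through its KO arrays alone and so had to differ. Any call of Grb14 in these counts is no support. In the marker lists, 0 were called, against 7 with normexp and either normalization and in the authors' deposited value table, 4 with the stricter filter, 8 with all 9 arrays separate, and 7 and 6 with the random block without and with slide. With 3 samples a group and amplified RNA, dim probes such as Pdgfra in WT have only a bound.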

Other observations

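Pdgfa and Pdgfc, whose chains bind the alpha receptor, were both lowest in KO sample 3 (2.13 and -4.03), the KO sample with the highest Pdgfra (-3.64). KO samples 1 and 2 were at 2.80 and 2.70 for Pdgfa and -2.62 and -2.95 for Pdgfc, and WT samples at 2.21 to 2.69 and -3.60 to -3.19. Both arrays of KO sample 3 gave the same order, with 2.15 and 2.12 for Pdgfa and -3.95 and -4.11 for Pdgfc. Without this sample, Pdgfc differed by 0.56 (limma adjusted p = 0.405) and Pdgfa by 0.31 (limma adjusted p = 0.621). This sample was picked here as the lowest, so the larger differences follow from that choice and are no support. Pdgfb, whose chain binds the alpha receptor too, was lowest in KO sample 2 (-2.21) and at -1.72 in KO sample 3. This order was noticed after the values were seen.

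Itgam, the gene of the CD11b antigen that the sort selected against, gave a bright signal on all arrays. Its log2 signal was 6.98, 6.85 and 7.0 in KO samples and 7.11, 6.88 and 7.08 in WT samples. The other tested myeloid and blood markers were dim beside it, with summed signals of 0.555 to 0.810 in KO samples and 0.587 to 0.929 in WT samples. Itgam was read from its kept probe of highest mean, and whether this signal comes from the Itgam transcript was not tested.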
